A study of Mus musculus with 24 samples.

Results

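Pax3, Lbx1, Met, Myf5, Myf6 and Myod1 are 6 genes of the cells that enter the limb bud and form its muscle. They were followed in 5 windows of the mouse genome (build mm9): Pax3 on chromosome 1 from 78.00 to 78.30 Mb, Lbx1 on chromosome 19 from 45.25 to 45.40 Mb, Met on chromosome 6 from 17.35 to 17.60 Mb, Myf5 with Myf6 on chromosome 10 from 106.80 to 107.00 Mb, and Myod1 on chromosome 7 from 53.58 to 53.68 Mb. The rule names genes and positions and uses no measured value, but it was written with earlier results of these data known. Together the windows span 1000 kb and held 268 of the 175212 peaks in the 10 lists analysed. No mm9 gene models were used, so a peak is placed in a gene's window and not in an exon, an intron or a promoter.

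The study mapped 2 marks on lysine 27 of histone H3 in limb buds of C57BL/6J mouse embryos for which the labels name no mutation and no drug. The labels do not say how many embryos went into a library. At embryonic day 10.5 (E10.5) there were 2 libraries of acetylation (H3K27ac) and 2 of trimethylation (H3K27me3) from forelimb buds, and the same from hindlimb buds. At E11.5 each limb had 1 H3K27ac library, made with another antibody lot, so stage and lot cannot be told apart. Each list holds the intervals in which the authors' peak caller found enrichment, and the value used throughout is the number of bases that peaks cover in a window, in kb.

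Muscle of the limb does not arise from the limb's own mesenchyme. Precursors leave the somites, migrate into the bud and there begin myogenesis. Pax3, a paired-box transcription factor, marks these precursors and acts upstream of Met, the receptor tyrosine kinase for hepatocyte growth factor, which they need to detach. Lbx1, a homeobox factor, is needed for their migration into the limb. Myf5, Myf6 and Myod1 are basic helix-loop-helix factors that commit cells to the muscle lineage. H3K27ac goes with active promoters and enhancers, whereas H3K27me3 is placed by Polycomb complexes at silent developmental genes, most often over stretches rich in CG dinucleotides. Whole buds were used, in which the migrating cells are a minority. A mark on few cells and a weak mark on all cells cannot be told apart, and 2 marks at a site can come from different cells.

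Of the 6 genes, 2 had an entry in the RefSeq promoter table (build GRCm38.p6), Met and Myf5; Pax3, Lbx1, Myf6 and Myod1 had none. The 250 bases before the start of both are shown, as the only 2 with an entry. Their windows had different marks at E10.5, and no link between sequence and marks was tested. The Met window had peaks of both marks, and the Myf5 and Myf6 window had peaks of neither. Each is printed 5′ to 3′ on the strand of the gene (plus for Met, minus for Myf5), with every CG dinucleotide in capitals.
Met: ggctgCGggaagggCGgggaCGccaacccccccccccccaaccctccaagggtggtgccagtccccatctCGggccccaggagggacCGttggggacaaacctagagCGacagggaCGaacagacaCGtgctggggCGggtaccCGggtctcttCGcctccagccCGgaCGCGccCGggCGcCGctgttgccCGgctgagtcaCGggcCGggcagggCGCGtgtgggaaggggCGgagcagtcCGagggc
Myf5: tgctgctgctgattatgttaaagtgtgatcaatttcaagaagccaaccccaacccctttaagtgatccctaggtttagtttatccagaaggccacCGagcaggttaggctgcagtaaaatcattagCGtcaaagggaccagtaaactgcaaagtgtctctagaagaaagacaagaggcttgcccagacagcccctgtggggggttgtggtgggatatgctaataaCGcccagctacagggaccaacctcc
The Met sequence held 24 CG dinucleotides, a number reached by 11.98% of the 32841 promoter entries of the table. The Myf5 sequence held 3, and 37.8% of entries held as few. The median entry held 6. CG made up 0.704 of its expected number in the Met sequence and 0.202 in that of Myf5, where the expected number follows from the counts of C and G. These letters are from another build than the peaks, so no peak was placed on them.

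The E10.5 lists held 13589 to 21363 peaks for H3K27ac and 10477 to 12901 for H3K27me3. Hindlimb H3K27me3 lists covered 12.02 and 13.5 Mb of the genome and forelimb lists 7.56 and 9.93 Mb, so the hindlimb mean was 1.46 times the forelimb mean. Forelimb replicate 2 was the shortest list of both marks. Depth is unknown from peak lists. The limb labels were checked at genes of limb mesenchyme and limb identity, in windows placed from general knowledge of mm9. Prrx1 and Twist1, transcription factors of limb mesenchyme, had H3K27ac in all 4 libraries (2.42 to 7.53 kb). Both also had short H3K27me3. At Prrx1 it was 0 kb in each forelimb library and 0.754 and 0.580 kb in hindlimb. At Twist1 it was 0 and 0.266 kb in forelimb and 0.362 and 0 kb in hindlimb. Peaks of H3K27ac at Tbx5, the forelimb T-box gene, spanned 22.8 and 17.1 kb in forelimb libraries, and hindlimb libraries had none. Pitx1, the hindlimb homeobox gene, had 0 kb of H3K27ac in forelimb and 13.4 and 14.0 kb in hindlimb. H3K27me3 at Tbx5 was 0 kb in each forelimb library and 34.7 and 34.1 kb in hindlimb. At Pitx1 it was 13.8 and 11.9 kb in forelimb and 3.04 and 2.81 kb in hindlimb. The housekeeping genes Actb and Gapdh had H3K27ac and no H3K27me3 in all 4 libraries, and the neural regulator Pax6 had the reverse.

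Among the muscle precursor genes, 3 of the 5 windows had H3K27me3 in all 4 E10.5 libraries (Pax3, Lbx1 and Myod1), and no window had H3K27ac in all 4. The genome was cut into tiles as wide as each window for comparison. H3K27me3 in all 4 libraries was found in 23.9% of tiles of 300 kb, the width of the Pax3 window, in 14.0% of those of 150 kb (Lbx1) and in 10.0% of those of 100 kb (Myod1). H3K27ac in all 4 was found in 38.8%, 25.2% and 18.6% of the same tiles. H3K27me3 in all 4 together with H3K27ac in fewer than 4, the state of all 3 of these windows, was found in 8.65%, 7.73% and 6.62%. A tile can hold any number of genes, so these shares describe the genome and test nothing.

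**Figure D1:**
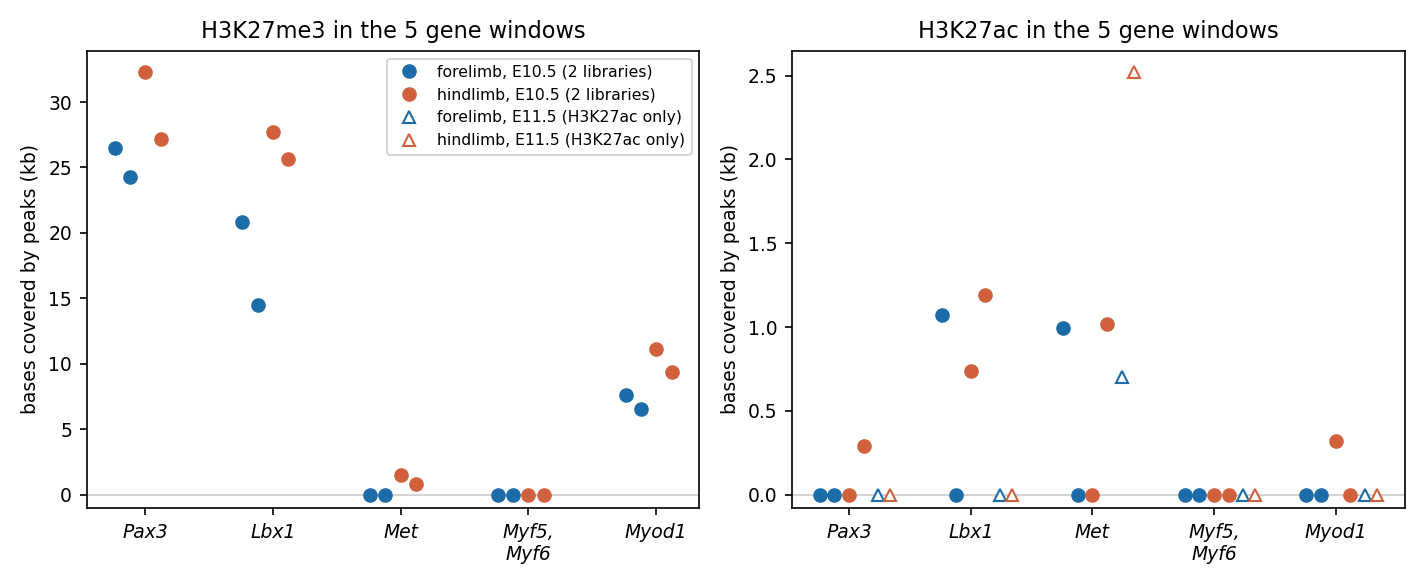
Bases covered by peaks (kb, vertical axis) of H3K27me3 (left) and H3K27ac (right) in the 5 gene windows (horizontal axis); each point is 1 library, filled for E10.5 and open triangles for E11.5. H3K27me3 reaches 32.3 kb at Pax3 and is 0 kb at Myf5 and Myf6, while no H3K27ac value exceeds 2.52 kb.

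Of the 5 windows, that of Pax3 had the most H3K27me3. H3K27me3 took up 26.5 and 24.3 kb of its window in forelimb replicates 1 and 2, and 32.3 and 27.2 kb in hindlimb replicates 1 and 2, the order used for all values that follow. Both hindlimb values were above both forelimb values. The means were 25.4 ± 1.54 kb and 29.8 ± 3.603 kb (SD, n = 2 each; two-sided exact permutation p = 0.333, the smallest that 2 against 2 libraries allow). The difference (forelimb minus hindlimb) was -4.36 kb, -1.81 kb without hindlimb replicate 1 and -6.91 kb without hindlimb replicate 2. That order is the usual one: of 300 kb tiles with H3K27me3 in all 4 libraries, 71.1% also had both hindlimb values above both forelimb values. Measured as a share of each list's covered bases, the order turned. The Pax3 window then held 0.267% and 0.321% of the forelimb lists and 0.239% and 0.226% of the hindlimb lists, an order found in 26.4% of those tiles.

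Most of the Pax3 signal lay in 1 domain. When H3K27me3 regions less than 2 kb apart were joined, a distance chosen after the lists were seen, a domain of 31.8 kb spanned 78185484 to 78217317 on chromosome 1. It ranked 16 by length among the 8650 domains of the genome, of which 277 (3.20%) reached 10 kb. Peaks filled 74.0% and 70.9% of it in forelimb and 85.2% and 79.7% in hindlimb. Of the regions detected in all 4 libraries, the 3 with the best score percentile averaged over the libraries lay inside it, at 78188156 to 78195102, 78195175 to 78197531 and 78212221 to 78217317. The best peak of the window ranked 331 of 12384 and 132 of 10477 in the forelimb lists and 405 of 12901 and 395 of 12678 in the hindlimb lists, by the authors' score. Of the domain's 16 bins of 2 kb, 8 had both hindlimb libraries above both forelimb libraries, 0 had the reverse, and 8 overlapped. The share of such bins over the genome was not computed. Among whole domains of at least 2 kb with peaks in all 4 libraries, 70.9% had covered bases higher in both hindlimb libraries. Outside the domain the mark was sparse. A second, thin domain of 4.13 kb from 78133742 to 78137873 had 1.00 and 0.969 kb in forelimb and 2.04 and 1.35 kb in hindlimb. Inside that domain, a region at 78133742 to 78134387 was found in both forelimb libraries alone, and one at 78136934 to 78137873 in both hindlimb libraries alone. Another limb-only region, at 78012997 to 78013729, was found in both hindlimb libraries alone.

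H3K27ac was nearly absent from the Pax3 window. The forelimb libraries had 0 kb each, hindlimb replicate 1 had 0 kb, and hindlimb replicate 2 had 0.292 kb, a single peak. That peak, at 78186240 to 78186531, lay wholly inside the H3K27me3 domain, and its score was above only 15.3% of its list. Hindlimb H3K27me3 covered all 292 bp of it. At E11.5 both limbs had 0 kb.

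The Lbx1 window, like that of Pax3, had a long domain of H3K27me3. It had 20.9 and 14.5 kb of H3K27me3 in forelimb and 27.7 and 25.6 kb in hindlimb. The limbs did not overlap, at 17.7 ± 4.52 kb and 26.7 ± 1.47 kb (SD, n = 2 each; exact permutation p = 0.333, two-sided), and the hindlimb mean was 1.51 times the forelimb mean. The difference (forelimb minus hindlimb) was -9.01 kb, and -5.82 kb without forelimb replicate 2. Of 150 kb tiles with H3K27me3 in all 4 libraries, 70.5% had the same order. As a share of the list's covered bases, the limbs overlapped, with 0.210% and 0.191% in forelimb and 0.205% and 0.213% in hindlimb. A domain of 24.2 kb from 45295845 to 45320014 on chromosome 19 held most of these bases and ranked 46 by length. It was filled to 77.3% and 58.4% in forelimb and to 94.0% and 91.9% in hindlimb. In hindlimb replicate 1 a single peak of 4674 bp at 45300724 to 45305397 ranked 6 of 12901 by score. The best peaks of the other libraries ranked 187 of 12384 and 264 of 10477 in forelimb and 142 of 12678 in hindlimb replicate 2. The longest peaks of the forelimb libraries there were 2236 and 1962 bp.

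Within the Lbx1 domain, the limbs separated in most bins. From 45295845 to 45297844, its first 2 kb, the forelimb libraries had 1.33 and 0 kb and the hindlimb libraries 1.98 and 1.93 kb. Forelimb cover was also low at 45309845 to 45311844, with 1.16 and 0.370 kb in forelimb and 1.78 and 1.95 kb in hindlimb. In its middle, from 45307845 to 45309844, all 4 libraries had 1.89 to 1.97 kb and the limbs overlapped. Of its 13 bins of 2 kb, the last of which is shorter, 9 had both hindlimb libraries higher, 0 had both forelimb libraries higher and 4 overlapped. As at Pax3, no genome share of such bins was computed, and 70.9% of whole domains in all 4 libraries had this order. The regions of this domain found in all 4 libraries were 45295845 to 45299093, 45299217 to 45305451, 45305602 to 45314296, 45314472 to 45316415 and 45316453 to 45319005. The remaining one of the window, at 45377324 to 45378755, was far from it. That region belongs to a second group further along, a sparse domain from 45374860 to 45382077, with 1.85 and 0.363 kb in forelimb and 2.88 and 2.82 kb in hindlimb. The window had 3 hindlimb-only regions, at 45319032 to 45319736, 45367199 to 45367844 and 45379025 to 45379658, and 0 forelimb-only regions. In the RefSeq table of GRCm38.p6, the genes beside Lbx1 are Tlx1 and Btrc, and which of the regions belong to a neighbour was not placed.

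The Lbx1 window also had the only H3K27ac region of the 5 windows found in 3 of the 4 E10.5 libraries. It ran from 45344188 to 45345706, 24.2 kb from the long H3K27me3 domain, and 21.5 kb from the nearest H3K27me3 region. Peaks there scored above 63.9% of the list in forelimb replicate 1, 79.6% in hindlimb replicate 1 and 58.3% in hindlimb replicate 2, taking the best peak of each. Forelimb replicate 2, the shortest list, had none. The window as a whole had 1.07 and 0 kb of H3K27ac in forelimb and 0.739 and 1.19 kb in hindlimb, and the limbs overlapped (0.536 ± 0.757 kb and 0.964 ± 0.318 kb; SD, n = 2 each; exact permutation p = 0.667, two-sided). At E11.5 this region was not covered in either limb. Of the 3591 H3K27ac regions found in 3 of 4 E10.5 libraries, 11.3% were likewise uncovered at E11.5. A second H3K27ac peak, at 45310557 to 45310860 in forelimb replicate 1 alone, lay inside the H3K27me3 domain. All 304 bp of it lay in H3K27me3 of some library, and 30 bp in that of the forelimb.

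**Figure D2:**
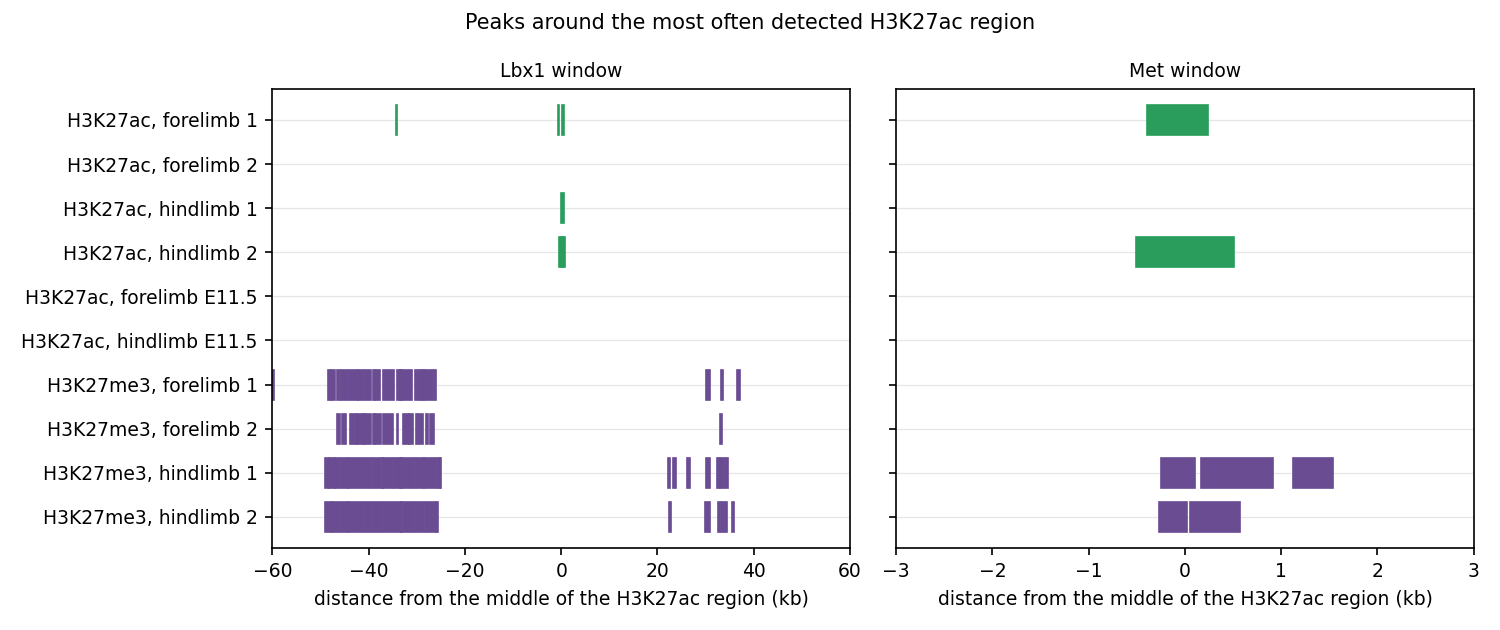
Peaks (boxes) of each list (rows) around the H3K27ac region found in most libraries of the Lbx1 window (left) and the Met window (right), by distance in kb from its middle; green is H3K27ac and purple H3K27me3. At Lbx1 the acetylated region lies between blocks of H3K27me3 and is not covered at E11.5, and at Met both marks fall on the same site, H3K27me3 in hindlimb libraries alone.

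The Met window had a single short site of H3K27me3, and H3K27ac lay on it too. H3K27me3 took up 0 kb of the window in each forelimb library, and 1.52 and 0.808 kb in hindlimb, so the limbs did not overlap (1.17 ± 0.505 kb in hindlimb, SD, n = 2; exact permutation p = 0.333, two-sided). The region at 17413736 to 17414925 on chromosome 6 was found in both hindlimb libraries and in neither forelimb library. Its peaks had modest scores, the best above 66.3% and 42.5% of the peaks in the lists of hindlimb replicates 1 and 2. Hindlimb-only regions made up 8.52% of all H3K27me3 regions, and 2.42% of 250 kb tiles had H3K27me3 in both hindlimb libraries and neither forelimb library. The difference (forelimb minus hindlimb) was -1.165 kb, and it was -0.957 kb with lists of equal length and -0.968 kb with libraries scaled to equal covered bases. With the better-scoring 50% of each list it was -0.3765 kb and came from 1 hindlimb library.

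H3K27ac lay on the same Met site in 1 library of each limb. The region from 17413500 to 17414520 was found in forelimb replicate 1 and hindlimb replicate 2 and not in forelimb replicate 2 or hindlimb replicate 1. These are the libraries with the longer H3K27ac list of each limb, and 4.94% of all H3K27ac regions had this pattern. The window had 0.997 and 0 kb in forelimb and 0 and 1.02 kb in hindlimb (exact permutation p = 1, two-sided). H3K27ac and H3K27me3 of the hindlimb shared 785 bp, the most of any of the 5 windows. A different measure, the share of H3K27ac regions that touched H3K27me3 of any library of either limb, was 6.85% across the genome. In the windows, this Met region did so, as did the single Pax3 region and the shorter Lbx1 region. A further H3K27ac peak, at 17534004 to 17534369, was present in forelimb replicate 1 with a score above only 1.08% of its list.

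Myf5 and Myf6, which lie side by side, had no peak at all. Both marks covered 0 kb of the 200 kb window in all 8 E10.5 libraries, and both E11.5 lists had 0 kb. Such a window is common, since 33.4% of 200 kb tiles had no peak in any of the 10 lists. Myf5 is the first of the myogenic factors to be used in the embryo, and Myf6 acts later as well. A window without peaks is one in which the peak caller listed nothing, and signal below its threshold is not seen.

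The Myod1 window held H3K27me3 in 3 separate pieces found in all 4 libraries. It had 7.65 and 6.55 kb in forelimb and 11.1 and 9.35 kb in hindlimb, with no overlap of the limbs (7.10 ± 0.776 kb and 10.2 ± 1.24 kb; SD, n = 2 each; exact permutation p = 0.333, two-sided). The hindlimb mean was 1.44 times the forelimb mean. Of 100 kb tiles with the mark in all 4 libraries, 69.4% had the same order, and their median ratio of hindlimb to forelimb was 1.41 (quartiles 1.21 and 1.77). As a share of the list's covered bases the limbs overlapped, at 0.0770% and 0.0866% in forelimb and 0.0822% and 0.0778% in hindlimb.

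The middle piece, at 53630573 to 53634380 on chromosome 7, was the most alike between the limbs. It had 3.57 and 2.64 kb in forelimb and 3.384 and 3.382 kb in hindlimb, and the limbs overlapped. It was 4 peaks in each forelimb library and 1 peak of 3384 and 3382 bp in the hindlimb libraries. The last piece, 15.1 kb further along at 53649474 to 53655657, had 3.36 and 3.39 kb in forelimb and 6.12 and 4.11 kb in hindlimb. From 53651474 to 53653473 within it, forelimb had 1.04 and 1.32 kb and hindlimb 2 and 1.88 kb. The first piece, at 53603194 to 53605120, showed the widest ratio, with 0.439 and 0.522 kb in forelimb against 1.60 and 1.86 kb in hindlimb. In the RefSeq table the neighbours of Myod1 are Otog and Kcnc1, and which piece belongs to which gene was not placed. H3K27ac in the window was a single peak of 0.321 kb in hindlimb replicate 1, at 53594975 to 53595295, outside the H3K27me3 pieces by 7.90 kb.

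**Figure D3:**
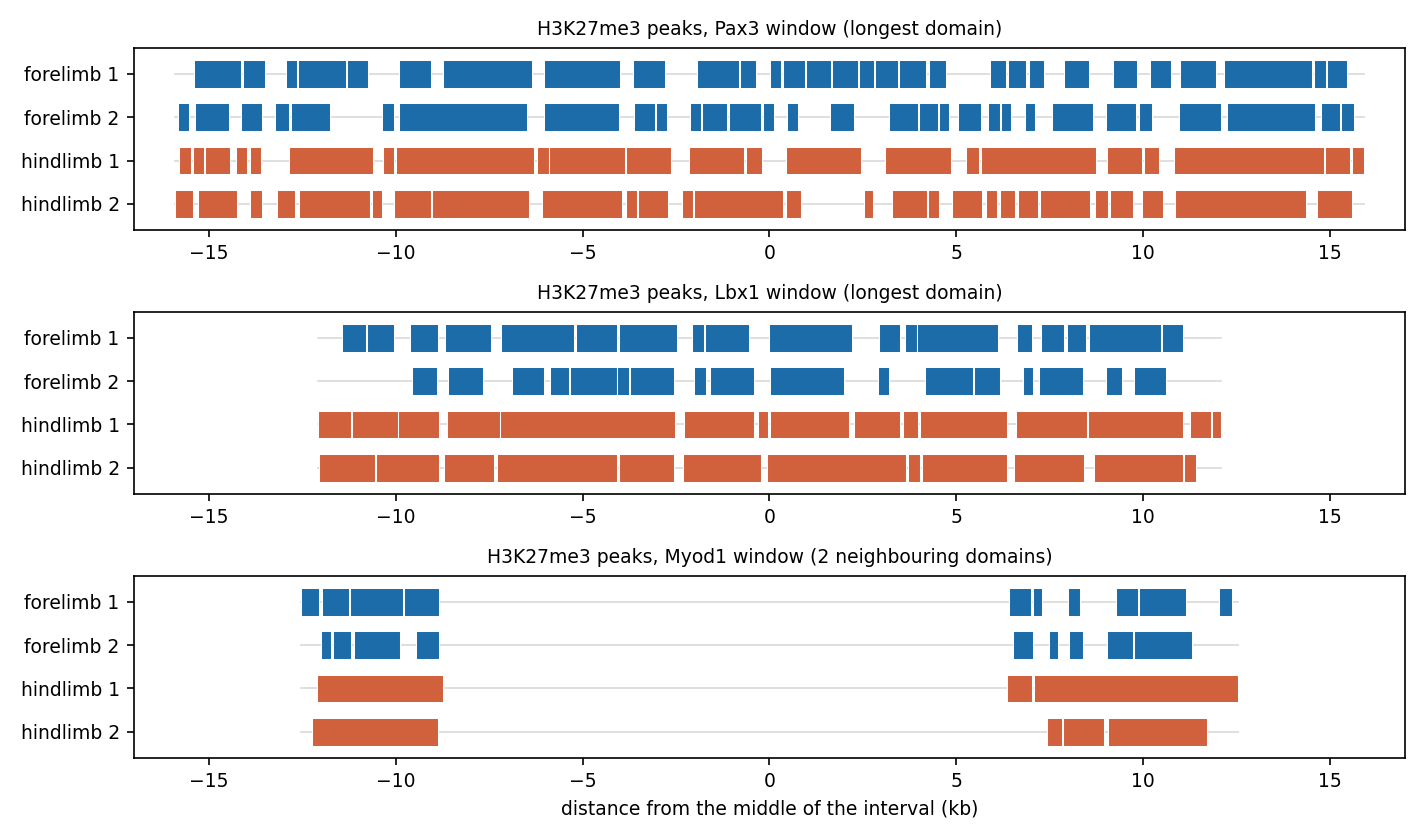
H3K27me3 peaks (boxes) in the 4 E10.5 libraries (rows; forelimb blue, hindlimb orange) across the longest domain of the Pax3 and Lbx1 windows and 2 neighbouring domains of the Myod1 window, by distance in kb from the middle of the interval. The intervals were joined from the peaks of all 4 libraries. In each domain shown the forelimb libraries have more peaks and a shorter longest peak, such as 4 peaks against 1 in the left Myod1 domain. The thin Pax3 domain, the sparse Lbx1 domain and the first Myod1 piece are not shown. In these the forelimb libraries did not both have more peaks.

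Side by side, the domains of these windows were divided into peaks differently in forelimb and hindlimb. Domains were joined from the peaks of all 4 libraries, and those counted here had to have peaks in each. Their shared position in both limbs therefore follows from the rule. There were 6 domains of at least 2 kb with peaks in all 4 libraries, 2 each at Pax3, Lbx1 and Myod1. Covered bases were higher in both hindlimb libraries in 5 of the 6, against 70.9% of the 2496 such domains of the genome. The longest peak was longer in both hindlimb libraries in 5 of the 6, against 70.8%. More peaks in both forelimb libraries were counted in 4 of the 6, against 14.7%. The domains of the genome were not matched to the 6 for length. In the long Pax3 domain the libraries had 29 and 30 peaks in forelimb and 22 and 27 in hindlimb, and in the long Lbx1 domain 18 and 17 against 15 and 12. The exceptions were the middle Myod1 piece for covered bases, the thin Pax3 domain for the longest peak, and the sparse Pax3 and Lbx1 domains for the number of peaks. The first Myod1 piece, of 1.93 kb, was below the 2 kb limit and is not among the 6. It had 1 peak in each forelimb library and 2 in each hindlimb library. Its covered bases and longest peak were higher in both hindlimb libraries. List length moves with the limb here, and its part in these counts was not tested.

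Counted as regions, the 5 windows held 47 H3K27me3 regions when peaks of the 4 libraries were merged. Of these, 18 (38.3%) were detected in all 4 libraries, against 27.7% of all 14776 such regions, with 9 at Pax3, 6 at Lbx1 and 3 at Myod1. Hindlimb-only regions numbered 6 (12.8%, against 8.52%), and forelimb-only regions 1 (2.13%, against 1.09%). The hindlimb-only regions were 3 at Lbx1, 2 at Pax3 and 1 at Met. Their mean score percentiles within the lists were 19.1 to 54.4, and 0 such regions were counted when the better-scoring 50% of each list was used. For H3K27ac the windows held 6 regions, of which 0 were detected in all 4 libraries, against 19.7% of all 29871 regions. Forelimb-only and hindlimb-only H3K27ac regions numbered 0 each, against 2.86% and 2.68%. Of the 6, 4 (66.7%) were found in 1 library, against 53.4%. Without forelimb replicate 2, the Lbx1 region was found in all of the remaining libraries.

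A day later, H3K27ac had peaks in the Met window alone. At E11.5 both limbs had 0 kb in the windows of Pax3, Lbx1, Myf5 with Myf6, and Myod1. The E11.5 lists covered 31.3 and 47.2 Mb of the genome and the E10.5 lists 7.63 to 14.7 Mb. These totals are not comparable, because E11.5 intervals are at least 1001 bp apart and their threshold is not given. Tiles with no E11.5 peak in either limb made up 35.8%, 47.3%, 42.3% and 54.6% at the widths of these 4 windows. In the Met window the forelimb list had 0.703 kb and the hindlimb list 2.52 kb. The E10.5 site with both marks was not covered. A forelimb peak at 17534008 to 17534412 overlapped the weak E10.5 peak of forelimb replicate 1, so that position was found in both forelimb stages. Peaks of both limbs overlapped further along, at 17566821 to 17567118 in forelimb and at 17565466 to 17567672 in hindlimb, where no E10.5 library had one. A last hindlimb peak lay at 17587679 to 17587993. Capza2 follows Met in the RefSeq table, and these peaks were not assigned to either gene. With 1 library per limb there is no test of the stages or limbs at E11.5.

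The other genes of the limb muscle programme give the setting of these 6, in 15 windows placed from general knowledge of mm9. H3K27me3 was found in all 4 libraries at 9 of the 15 and H3K27ac in all 4 at 6, with both at 2. Among 100 kb tiles, 10.0% had H3K27me3 in all 4 and 18.6% had H3K27ac in all 4. Tiles with H3K27me3 in all 4 but H3K27ac in fewer made up 6.62%, and the rest of that 10.0% had both. These shares are not matched to the 15 windows, which are 25 to 220 kb wide and were each placed on a gene. At 5 of the 9, both hindlimb H3K27me3 libraries were above both forelimb libraries, and at 0 the reverse. Of 100 kb tiles with the mark in all 4 libraries, 69.4% had that order. The median ratio of hindlimb to forelimb was 1.30 over the 9 genes and 1.41 over those tiles.

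Regulators of muscle cells were split between the marks. Pax7, the paired-box gene of muscle stem cells and close relative of Pax3, had 24.1 and 19.9 kb of H3K27me3 in forelimb and 28.0 and 26.8 kb in hindlimb. H3K27ac at Pax7 was 1.04 kb in forelimb replicate 1 and 0.587 kb in hindlimb replicate 2, and the remaining libraries had none. Myog, the factor of muscle differentiation, had 1.87 and 1.60 kb in forelimb and 2.58 and 2.32 kb in hindlimb. No library had H3K27ac at Myog. Msc, a repressor of the same helix-loop-helix class, had 3.39 to 4.72 kb of H3K27me3 with the limbs overlapping.

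Six4, a homeobox factor, its cofactor family member Eya1, and Mef2c, a MADS-box factor of muscle, had H3K27ac in all 4 libraries, from 0.593 to 2.35 kb, and 0 kb of H3K27me3. These genes are also active in cells other than muscle precursors. Meox2, a homeobox gene of limb muscle, had H3K27ac over 1.15 and 0 kb in forelimb, and over 0.295 and 0.632 kb in hindlimb. Its H3K27me3 (1.10 and 0.969 kb) was listed for the hindlimb libraries alone.

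Of the signals that guide the migrating cells and their receptors, 2 of 4 genes had H3K27me3 in all libraries and 2 had H3K27ac in all. Hgf, the ligand of Met made by limb mesenchyme, had 0 kb of H3K27me3 in all 4 libraries. Its H3K27ac was 0.955 and 0 kb in forelimb and 0.746 and 0.352 kb in hindlimb, and 1.06 and 1.16 kb at E11.5. Cxcl12, a chemokine of the mesenchyme, had both marks in all 4 libraries, with 0.834 to 1.502 kb of H3K27ac and 0.523 to 1.98 kb of H3K27me3. Its receptor Cxcr4 had H3K27me3 in all 4 libraries (0.896 to 1.62 kb) and H3K27ac in 1 library of each limb (0.299 and 0.430 kb). Gab1, an adaptor protein of the Met receptor that is used by many cell types, had 1.26 to 2.67 kb of H3K27ac and 0 kb of H3K27me3.

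Genes of differentiated muscle all had H3K27me3 in the 4 libraries. Acta1, skeletal muscle actin, had 2.46 and 2.66 kb in forelimb and 3.98 and 4.13 kb in hindlimb. Ckm, muscle creatine kinase, had 3.39 and 2.14 kb against 5.02 and 5.14 kb, and Myh3, embryonic myosin heavy chain, 0.557 and 0.590 kb against 1.56 and 1.16 kb. H3K27ac was 0 kb at these 3 genes in all E10.5 and E11.5 lists. Des, the intermediate filament gene desmin, had both marks in the 4 E10.5 libraries, with 0.354 to 1.22 kb of H3K27ac and 0.547 to 1.09 kb of H3K27me3. At E11.5 the Des window had 0 kb in both limbs.

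**Figure D4:**
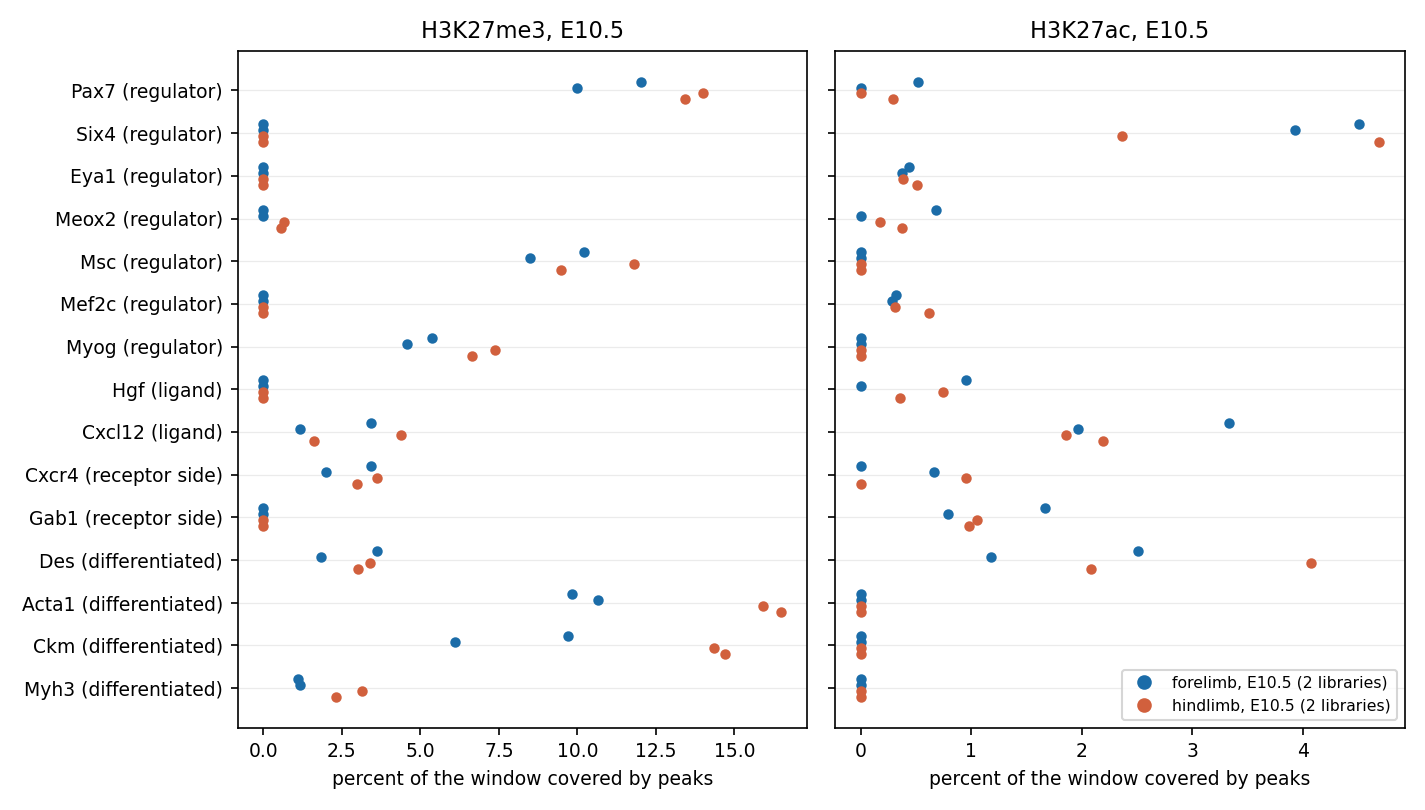
Percent of each window covered by H3K27me3 (left) and H3K27ac (right) peaks at E10.5 for 15 other genes of the limb muscle programme (rows, with their role); each point is 1 library, forelimb blue and hindlimb orange. H3K27me3 is present in all 4 libraries at 9 genes and H3K27ac at 6, and Cxcl12 and Des have both.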

How the data were processed

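Peak lists of 10 libraries were used, grouped by title: at E10.5, 2 libraries of each mark for each limb, and at E11.5, 1 of H3K27ac for each. The labels' protocols name day 10.5 for the E11.5 samples, and the titles were followed. The 14 other samples were not analysed here. Bowtie 0.12.3, MACS 1.37 and build mm9 are named, per the submitters' processing notes. Each E10.5 peak carries the authors' deposited score, which is -10 times the base-10 logarithm of its p-value (threshold 1e-05, from the track names per the file headers and the lowest score of 50), and scores were used only within a list. The E11.5 lists have no score, their intervals are at least 1001 bp apart, and for their threshold: not given in the sources used here. Their covered bases are therefore not comparable with those at E10.5. H3K27ac libraries were paired-end and H3K27me3 libraries single-end, so mark and run type cannot be told apart.

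Covered bases were counted per window and library, and the limbs compared with a two-sided exact permutation test. Peaks of the 4 libraries of a mark were merged where they touched (gap 0), and 1 covered base was enough for detection. Limb-only regions were those in both libraries of 1 limb and neither of the other. Tiles ran along chromosomes 1 to 19 and X to the last peak. Named regions were those detected in all 4 libraries, limb-only regions and E11.5 peaks, with the 3 best ranked where there were more than 6. The calls were tested on simulated lists of well-separated regions, each present in every library of its group. That does not show how the calls behave where peaks nearly touch or are missing from single libraries. From the muscle programme list, 2 genes are not reported here, for a reason unrelated to their values, and its counts leave them out. The members, windows and gene lists were chosen with earlier results of these data known. All 28 genes lay on the chromosome that the GRCm38.p6 table gives and in its order, which does not check the bounds of their windows. Whether replicates came from separate litters is not stated, so their spread may be technical. Alternatives were a score filter, equal list lengths, scaling, other bounds and merge gaps, a replicate block and leaving out each library. Python 3.11.15 was used.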

Additional observations from a re-analysis of the deposited data

How the results depend on the processing

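Of the 10 limb differences in covered bases, 8 were not 0. Of their 92 alternative values, 82 had the direction reported, 5 turned and 5 were 0. The 82 include values that could not turn, because pairing libraries by replicate number, straight or crossed, keeps the mean difference by construction. Assigning peaks to windows by their centre also left each of these differences at its reported value. The H3K27me3 differences (forelimb minus hindlimb) turned only when each library was scaled to equal covered bases, at Pax3 (6.58 kb) and Myod1 (0.190 kb), while that scaling left -0.925 kb at Lbx1. Without each library in turn they ranged from -6.91 to -1.81 kb at Pax3, -12.2 to -5.82 kb at Lbx1, -1.52 to -0.808 kb at Met and -4.00 to -2.25 kb at Myod1. The smaller H3K27ac differences depended on single libraries. With each left out in turn, they ranged from -0.292 to 0 kb at Pax3, -0.964 to 0.107 kb at Lbx1, -0.523 to 0.499 kb at Met (0.487 kb without forelimb replicate 2) and -0.321 to 0 kb at Myod1. With the better 50% of each list they were 0 at Pax3 and Myod1, and with lists of equal length 0 at Pax3. With wider windows the Myf5 and Myf6 difference was 0.165 kb. Leaving out libraries gave 0 to 1 H3K27ac regions in all libraries, 0 to 2 forelimb-only and 0 to 1 hindlimb-only. Wider windows gave 1 forelimb-only H3K27ac region. For H3K27me3, leaving out libraries gave 2 to 7 forelimb-only and 7 to 18 hindlimb-only regions. A merge gap of 1 kb, which joins pieces, left 7 regions in all 4 libraries, 0 forelimb-only and 3 hindlimb-only. With at least 50% of a region covered there were 0 forelimb-only regions, and with the better 50% of lists 0 hindlimb-only.

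Alternatives for limb-only counts, bases with both marks, E11.5, the other muscle genes and tile widths were chosen after seeing the data. Bases with both marks ranged from 0 to 292 bp at Pax3 and 0 to 785 bp at Met in hindlimb and from 0 to 30 bp at Lbx1 in forelimb when single libraries were left out. With the better 50% of lists they were 0, 348 and 0 bp. At E11.5, wider windows added 0.969 kb (forelimb) and 1.43 kb (hindlimb) at Lbx1 and 0.699 kb (hindlimb) at Myf5 and Myf6, and narrower windows left 2.21 kb (hindlimb) at Met. With the better 50% of lists, 3 other muscle genes had H3K27ac in all libraries. The share of tiles with H3K27me3 in all 4 and H3K27ac in fewer went from 6.62% at 100 kb to 7.73%, 7.99%, 8.14% and 8.65% at 150, 200, 250 and 300 kb. Pairing the limbs by replicate number (replicate block) left the Pax3 H3K27me3 difference at -4.36 kb, with p = 0.5 in an exact sign-flip test, the smallest for 2 pairs. That 0 of the 10 differences had p under 0.05 in this test was fixed in advance by that limit. The deviations of same-numbered libraries correlated at 0.121 for H3K27me3 and -0.216 for H3K27ac across 20 kb bins. The crossed H3K27ac pairing has the same limit and could not pass any difference either.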

Other observations

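Agreement between libraries inside the windows did not follow the limb alone. The share of H3K27me3 bases common to 2 libraries (intersection over union) at Pax3 was 0.594 between the forelimb libraries, 0.659 between the hindlimb libraries and 0.603 to 0.661 between limbs. At Lbx1 it was 0.642, 0.812 and 0.519 to 0.717, and at Myod1 0.574, 0.770 and 0.524 to 0.591. Over the genome the values were 0.558, 0.658 and 0.483 to 0.576. At all 3 genes, forelimb replicates shared less with each other than hindlimb replicates did. Pairs share libraries, and the values are given with no test.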
